A study of Homo sapiens with 18 samples.

Results

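The regions described here are stretches of the genome at which H3K27me3, the trimethylation of lysine 27 on histone H3, was called in every V16D/H19 library and in no V16D/CTL library. V16D is a castration-resistant prostate cancer line derived from LNCaP cells. V16D/CTL cells were transduced with a control lentivector and V16D/H19 cells with a lentivector that overexpresses the long non-coding RNA H19, in biological triplicates of this single line. Each replicate was immunoprecipitated for H3K27me3 and for H3K4me3, and its own input library served as the control for both marks. Merging all peaks of the 6 H3K27me3 lists that overlapped by 1 base or more gave 149858 merged regions. Of these, 576 had a peak in all 3 V16D/H19 lists and in none of the 3 V16D/CTL lists, 0.384% of all merged regions. They are called H19-only regions below. The reverse rule, all 3 V16D/CTL lists and no V16D/H19 list, was met by 1159 regions, or 0.773%, which are called CTL-only regions. Another 10934 regions had a peak in all 6 lists. Because the H19-only regions were chosen by their H3K27me3 calls, every H3K27me3 value given for them is a description without a test.

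H3K27me3 is laid down by Polycomb repressive complex 2 (PRC2), whose catalytic subunit is EZH2, and it marks repressed genes, most of all developmental regulators. It can also cover long stretches between and inside silent genes at a low level. H3K4me3 marks the starts of active or poised genes, and a promoter that carries both marks is called bivalent.

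The number of peaks per H3K27me3 list ran from 55060 to 72289 in V16D/CTL and from 56239 to 62879 in V16D/H19, and V16D/CTL replicate 1 was the shortest list of all. A peak list records where a caller passed its threshold, so a region without a peak is not a region without the mark. The read depth behind the lists was not used here, and its part in the calls was not tested. As a check of the label, all 8 luminal prostate genes examined, KLK3 among them, had an H3K4me3 peak within 1 kb of the start in all 6 lists. So did 11 of 18 neuroendocrine genes and 60.8% of all protein-coding genes, and CHGA had such a peak in none, so the check is a weak one.

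Few H19-only regions lay at gene starts. Of these regions, 5 overlapped a promoter window of RefSeq (GRCh38.p14, 250 bases before to 50 bases after a transcript start), and the windows of 3 named genes are shown as examples of a promoter that meets an H19-only region. RGS13, a regulator of G protein signalling, has its whole window (chr1:192635897-192636196, plus strand) inside an H19-only region. NR2F1-AS1, a non-coding RNA gene, also has its whole window (chr5:93585540-93585839, minus strand) inside one. That region lies inside the nuclear receptor gene NR2F1, 2299 bases downstream of the NR2F1 start. The window of GNAI1 (chr7:80135534-80135833, plus strand), which encodes an inhibitory G protein alpha subunit, shares 97 bases with an H19-only region. H3K27me3 peaks of all 3 V16D/H19 libraries reached the RGS13 window, those of replicates 1 and 2 the NR2F1-AS1 window and that of replicate 3 alone the GNAI1 window. CG dinucleotides, the sites of DNA methylation, are in capitals.
RGS13: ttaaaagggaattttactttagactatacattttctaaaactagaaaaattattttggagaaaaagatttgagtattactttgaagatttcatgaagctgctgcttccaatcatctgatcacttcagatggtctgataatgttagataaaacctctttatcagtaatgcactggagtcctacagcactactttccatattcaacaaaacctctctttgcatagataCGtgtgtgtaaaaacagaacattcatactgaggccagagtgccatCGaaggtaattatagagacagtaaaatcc
NR2F1-AS1: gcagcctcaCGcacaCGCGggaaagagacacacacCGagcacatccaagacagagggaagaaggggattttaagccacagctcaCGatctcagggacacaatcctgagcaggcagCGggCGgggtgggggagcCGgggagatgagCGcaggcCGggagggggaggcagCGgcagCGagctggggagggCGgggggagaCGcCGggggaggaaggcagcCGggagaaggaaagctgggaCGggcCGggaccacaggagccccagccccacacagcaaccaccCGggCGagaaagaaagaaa
GNAI1: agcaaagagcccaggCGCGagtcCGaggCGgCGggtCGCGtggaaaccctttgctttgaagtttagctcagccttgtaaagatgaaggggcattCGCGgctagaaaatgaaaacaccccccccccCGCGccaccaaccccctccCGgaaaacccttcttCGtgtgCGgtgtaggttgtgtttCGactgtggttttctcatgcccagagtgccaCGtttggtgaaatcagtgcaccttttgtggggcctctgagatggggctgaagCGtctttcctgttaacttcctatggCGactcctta
The RGS13 window held 2 CG dinucleotides, fewer than most windows, since 11.0% of the 35116 RefSeq windows held fewer. The NR2F1-AS1 window held 20 and the GNAI1 window 18, and 58.8% and 55.5% of all windows held fewer. A CG, which reads the same on both strands, was present in 96.0% of all windows. The median over the 5 windows was 10 CG, against 9 in the 36 windows that overlapped CTL-only regions and 22 in the 2040 windows that overlapped regions of all 6 lists. H3K4me3 peaks overlapped part of the NR2F1-AS1 and GNAI1 regions in every library, as given below, and no H3K4me3 peak lay within 1 kb of the RGS13 start in any library.

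The H19-only regions were short and weakly called. Their width ran from 378 to 3262 bases with a median of 1056 bases (quartiles 814 and 1430), and together they covered 673 kb. The strength of a peak is given as the authors' −log10 q, where 2 stands for a q-value of 0.01, and as its fold over input. The median −log10 q of the H19-only regions was 1.69 in V16D/H19 replicate 1, 1.66 in replicate 2 and 1.73 in replicate 3. Regions of all 6 lists had medians of 2.28, 2.29 and 2.38 in the same libraries, and all merged regions with a peak had 1.76, 1.72 and 1.78. The median fold over input of the H19-only regions was 3.37, 3.29 and 3.33 in the 3 libraries, beside 3.78, 3.74 and 3.76 for regions of all 6 lists. H19-only regions therefore sat just under the middle of each list, where the median region outranked 44.6%, 45.2% and 45.9% of its peaks.

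**Figure D1:**
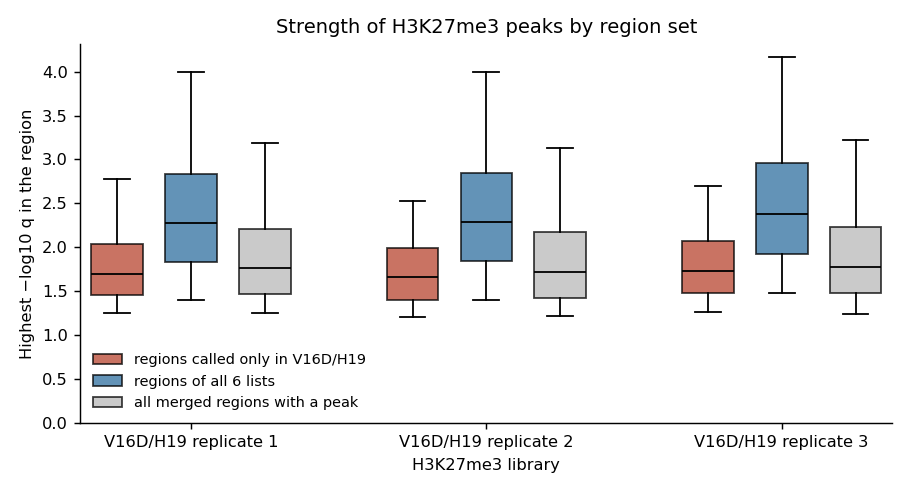
Highest −log10 q of a region in each V16D/H19 H3K27me3 library (vertical axis) for H19-only regions, regions of all 6 lists and all merged regions with a peak in that library. Boxes span the quartiles with the median as a line, and whiskers run from the 5th to the 95th percentile; the H19-only medians of 1.69, 1.66 and 1.73 lie below the medians of the other 2 sets in every library.

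Hardly any H19-only region was strong in all 3 replicates. A −log10 q of at least 2 was reached by 26.9%, 24.0% and 28.3% of them in the single libraries but by 16 of 576 (2.78%) in all 3, and 0 reached 3 in all 3. The highest and the lowest −log10 q of a region differed by a median of 0.645. None of the regions stood in the top 10% of all 3 lists, and 49 ranked above the median of all 3. The peaks also shifted between replicates. In 390 regions the 3 lists shared at least 1 base, and in 186 regions they were joined only through overlaps of pairs. The bases shared by all 3 lists made up a median of 9.56% of a region's width. A single peak per list formed 510 of the regions, and 66 held 2 or more peaks of some list.

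Regions just outside the rule looked much the same. The 4401 regions with a peak in 2 of the 3 V16D/H19 lists and none in V16D/CTL had median −log10 q values of 1.64, 1.58 and 1.67. V16D/H19 replicate 1 was the missing library in 1734 of them, replicate 2 in 1340 and replicate 3 in 1327. The 1197 regions with a peak in all 3 V16D/H19 lists and in 1 V16D/CTL list had medians of 1.74, 1.71 and 1.82. Their single V16D/CTL peak came from replicate 1 in 253 regions, from replicate 2 in 431 and from replicate 3 in 513, in the order of the lengths of these lists. The CTL-only regions had medians of 1.89, 1.83 and 1.85 in the V16D/CTL libraries.

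Most H19-only regions lay beside a V16D/CTL peak. The nearest peak of any V16D/CTL list was at a median of 634 bases. A V16D/CTL peak lay within 1 kb of 358 regions (62.2%), within 5 kb of 516 (89.6%) and within 10 kb of 546 (94.8%). All 3 V16D/CTL lists had a peak within 5 kb of 290 regions (50.3%), 2 lists near 150, 1 list near 76 and no list near 60. The shortest list, V16D/CTL replicate 1, had a peak within 5 kb of 372 regions, replicate 2 of 429 and replicate 3 of 445. CTL-only regions lay at a median of 731 bases from the nearest V16D/H19 peak, and 57.3% had one within 1 kb.

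**Figure D2:**
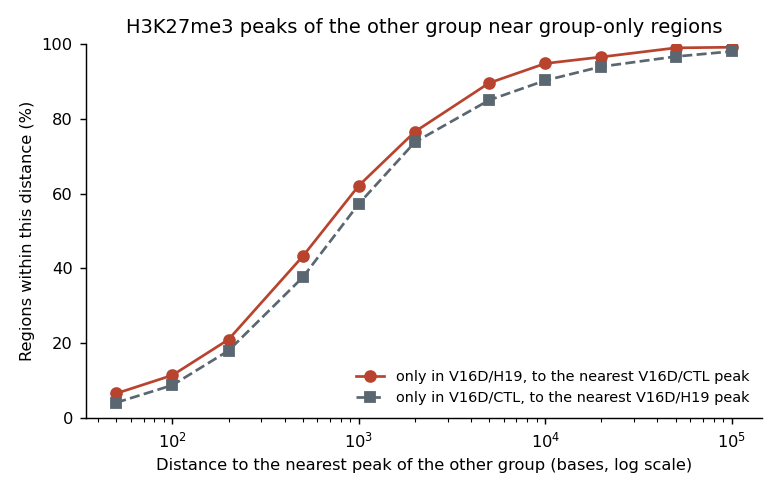
Share of regions (vertical axis, %) with a peak of the other group within a given distance (horizontal axis, bases on a log scale). H19-only regions are measured to the nearest V16D/CTL peak and CTL-only regions to the nearest V16D/H19 peak; both curves pass 50% before 1 kb, and at 10 kb they stand at 94.8% and 90.2%.

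Around the H19-only regions both groups carried the mark. In the flanks up to 10 kb on either side, V16D/H19 peaks covered 10.3%, 11.4% and 11.8% of the bases in replicates 1, 2 and 3. V16D/CTL peaks covered 7.79%, 10.7% and 11.6% there. V16D/CTL replicate 1 stood apart at 7.79%, although its list spans more bases than that of V16D/H19 replicate 1. V16D/CTL replicates 2 and 3 lay within the range of V16D/H19, from lists that span more bases than any V16D/H19 list. From 10 to 50 kb the V16D/H19 libraries stood at 8.26%, 9.17% and 9.50% and the V16D/CTL libraries at 6.98%, 9.26% and 9.74%. These coverages overlapped between the groups without adjustment for list span. In the flanks of CTL-only regions up to 10 kb, V16D/CTL peaks covered 9.90%, 12.8% and 13.6% of the bases. V16D/H19 peaks covered 7.71%, 8.68% and 8.87% there, with no overlap between the groups. The V16D/CTL lists behind these coverages span 45.1, 58.8 and 62.2 Mb, and those of V16D/H19 span 42.3, 47.5 and 48.4 Mb. No coverage was adjusted for these spans, so neither the overlaps nor the gaps compare the groups at equal list span.

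**Figure D3:**
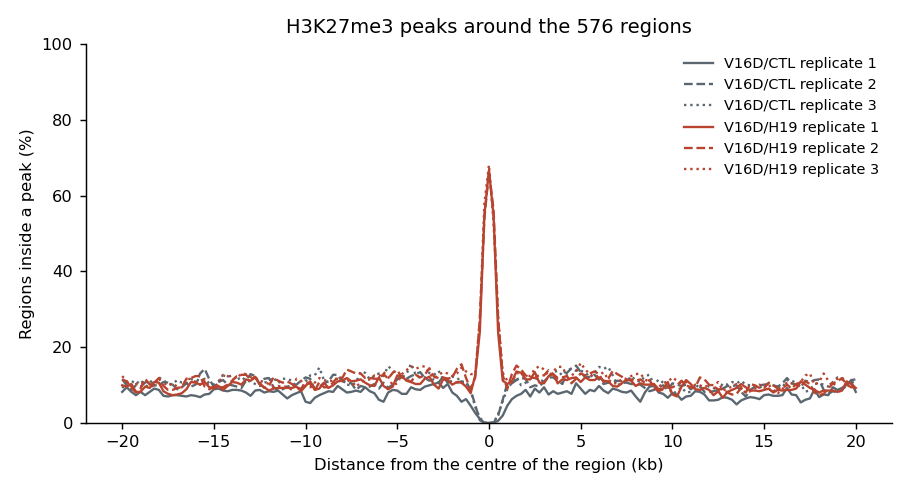
Share of the 576 H19-only regions inside an H3K27me3 peak (vertical axis, %) by distance from the centre of the region (horizontal axis, kb), 1 line per library. The rule sets the centre, where V16D/CTL is at 0 and V16D/H19 reaches 66.3% to 68.1%; beyond about 1 kb the 6 lines run together at about 10%, with V16D/CTL replicate 1 the lowest over most of the range.

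The isolated regions were few. Of the 576 regions, 30 lay more than 10 kb from any V16D/CTL peak, a set picked out after the distances were seen, and 6 lay beyond 50 kb. Of the 30, 14 were inside a protein-coding gene. Their lowest −log10 q over the 3 libraries had a median of 1.45, near the median of 1.41 over all H19-only regions. The strongest of them by this measure was a 677-base region on chromosome 17 (chr17:53190678-53191354), 631573 bases upstream of KIF2B, with a lowest −log10 q of 2.01. The region farthest from any V16D/CTL peak lay on chromosome 9 (chr9:17062085-17062969), 72071 bases upstream of CNTLN and 190257 bases from the nearest V16D/CTL peak. Isolated regions inside genes included ones in CELF2, RYR2, KCNH7 and HS3ST5.

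The 10 regions with the highest lowest −log10 q are described first. The strongest was a region of 663 bases on chromosome 7 (chr7:39468692-39469354), 97050 bases upstream of YAE1, with −log10 q values of 3.19, 2.62 and 3.16 in V16D/H19 replicates 1 to 3. Its fold over input was 4.58, 4.01 and 4.36, and a V16D/CTL peak lay 680 bases away. The next lay inside SYN2 (chr3:12080795-12081722), which encodes the synaptic vesicle protein synapsin II, with −log10 q values of 2.63, 2.40 and 2.38. The third lay 43163 bases upstream of CR2 (chr1:207410562-207411165), the complement receptor gene, with 2.34, 2.48 and 2.87. A region 2384 bases upstream of GABBR2 (chr9:98711319-98712768), a subunit of the metabotropic GABA receptor, had 2.60, 2.27 and 3.66. The region in SLIT2 (chr4:20331803-20332671), an axon guidance ligand, had 2.95, 2.20 and 2.14. All 5 had a V16D/CTL peak within 1 kb.

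The other five of these 10 lay inside genes. The region in DLGAP2 (chr8:1337776-1338615), a postsynaptic scaffold gene, had −log10 q values of 2.30, 2.14 and 3.22. The region in AKAP6 (chr14:32812468-32813570), which anchors protein kinase A, had 2.25, 3.55 and 2.12. NPAS3 (chr14:33582478-33583873), a neuronal transcription factor gene, held one with 2.12, 2.16 and 2.22, in which no base was shared by all 3 lists. The region in MSRA (chr8:10060986-10062580), a methionine sulfoxide reductase gene, had 2.34, 2.10 and 2.40. The region in NRXN3 (chr14:78620938-78623299), a presynaptic adhesion gene, had 2.95, 2.05 and 2.27 and again no base common to the 3 lists. Of the 10, the NRXN3 region was the farthest from a V16D/CTL peak, at 6629 bases.

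The 5 widest regions ran from 2714 to 3262 bases. The widest lay inside ADGRL2 (chr1:81810454-81813715), an adhesion G protein-coupled receptor gene, with −log10 q values of 2.39, 1.67 and 2.68 and a V16D/CTL peak 279 bases away. A region of 3012 bases lay 53304 bases upstream of the receptor phosphatase gene PTPRK (chr6:128573903-128576914), with 3.62, 2.82 and 1.86. A region of 2991 bases in HS3ST5 (chr6:114154754-114157744), a heparan sulfate sulfotransferase gene, had 1.73, 2.05 and 1.83, and its nearest V16D/CTL peak was 14788 bases away. The region 51636 bases upstream of NEUROD6 (chr7:31392362-31395146), a neuronal basic helix-loop-helix factor gene, had 3.62, 1.52 and 3.85. The region in TLN2 (chr15:62567442-62570155), which encodes talin 2, had 1.45, 1.86 and 2.03. Replicate 2 was the lowest of the 3 libraries at the ADGRL2 and NEUROD6 regions, replicate 3 at the PTPRK region and replicate 1 at the HS3ST5 and TLN2 regions.

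**Figure D4:**
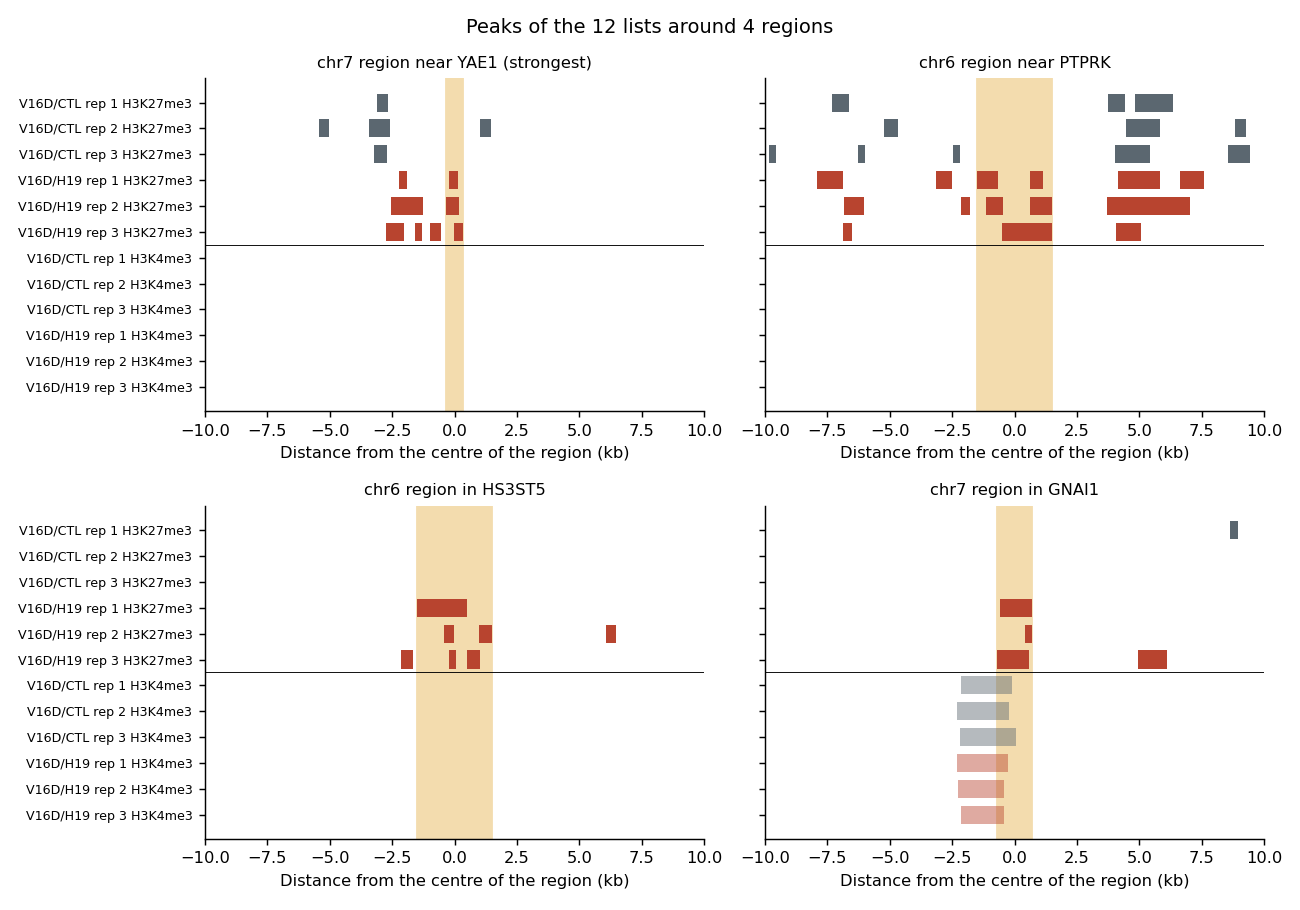
Peaks of all 12 lists within 10 kb of the centre of 4 H19-only regions (horizontal axis, kb from the centre; 1 row per library, H3K27me3 above and H3K4me3 below the line). The shaded band is the region; V16D/CTL H3K27me3 peaks flank the regions near YAE1 and PTPRK, none lies within 10 kb of the HS3ST5 region, and H3K4me3 peaks of all 6 libraries reach into the GNAI1 region.

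By position, 257 of the 576 H19-only regions (44.6%) overlapped a protein-coding gene, 82 a long non-coding RNA gene only and 237 neither. The share in protein-coding genes was 43.3% over all merged regions and 40.5% over CTL-only regions. Gene starts were rarely reached. Only 9 H19-only regions (1.56%) lay within 1 kb of a protein-coding gene start and 1 covered the start, beside 46 (3.97%) and 15 of the CTL-only regions. Regions of all 6 lists lay within 1 kb of a start in 13.7% of cases and all merged regions in 2.45%. Exons and introns were not told apart here.

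The gene whose start was covered was RGS13 (chr1:192635548-192637529), with −log10 q values of 1.54, 1.73 and 1.59. Upstream of a start, H19-only regions lay 410 bases from ADGRL2 (chr1:81304363-81305722), with 1.41, 1.42 and 2.73, and 692 bases from the olfactory receptor gene OR51B2 (chr11:5324989-5326066), with 1.89, 1.21 and 1.75. Downstream, the region in ATOH1 (chr4:93829285-93830531), a proneural transcription factor gene, began 532 bases from the start and had 1.28, 1.59 and 1.34, with a V16D/CTL peak 14 bases away. The region 687 bases into OR51Q1 (chr11:5422798-5424265) also lies within the span of OR51B5 and had 2.06, 1.41 and 2.55. The remaining 4 were in the solute carrier genes SLC35D1 (chr1:67052083-67053247), SLC22A4 (chr5:132294720-132295246) and SLC45A4 (chr8:141306569-141307633) and in GNAI1 (chr7:80135737-80137166). SLC22A4, an organic cation transporter gene, had −log10 q values of 2.56, 1.34 and 2.97 at a region whose nearest V16D/CTL peak was 146602 bases away. GNAI1 had 2.14, 1.86 and 2.08, and its nearest V16D/CTL peak lay at 7928 bases.

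Long genes held many of the regions. The 257 regions fell in 196 protein-coding genes, 0.978% of the 20037 placed, with a median length of 356 kb against 24.1 kb over all protein-coding genes. Of the 315 genes of at least 500 kb, 69 (21.9%) held a region. A gene of that length held 117 of the H19-only regions (20.3%), compared with 14.7% of all merged regions, 8.28% of CTL-only regions and 12.7% of regions of all 6 lists. Regions just outside the rule had shares of 19.9% with a peak in all 3 V16D/H19 lists and 1 V16D/CTL list and 18.7% with a peak in 2 V16D/H19 lists and no V16D/CTL list. These shares stand side by side without a test, since neighbouring regions are not independent and the calls chose them.

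CSMD1, a giant gene on chromosome 8 that encodes a complement control protein of neurons, held 7 H19-only regions and 1 CTL-only region among 379 merged regions. Their lowest −log10 q ran from 1.28 to 1.99, and the strongest (chr8:4664283-4664849) had 3.02, 1.99 and 2.05. OPCML, a GPI-anchored adhesion gene on chromosome 11, held 6, of which 5 lay within 197 kb (chr11:133126628-133324071). CDH13, the GPI-anchored T-cadherin gene on chromosome 16, held 5 with a lowest −log10 q from 1.29 to 1.47. CELF2, an RNA-binding splicing regulator gene on chromosome 10, held 4, and its first (chr10:10647688-10650255) lay 11740 bases from any V16D/CTL peak. ADGRL2, ANKS1B, ATRNL1, DLG2, NRXN3 and VAT1L held 3 each. CDH13, CELF2, ANKS1B, ATRNL1, NRXN3 and VAT1L held 0 CTL-only regions, and OPCML and DLG2 held 1 each and ADGRL2 2. Each of the 10 genes also held regions of all 6 lists, from 3 in ANKS1B to 37 in CDH13.

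Gene families were counted from lists chosen with earlier results of these data known. Neuronal adhesion genes (35 genes with a median length of 643 kb) held a region in 7 cases (20.0%), beside 0.978% of all protein-coding genes and 21.9% of genes of at least 500 kb. They were OPCML, NRXN3, the cell adhesion gene CADM2 (2 regions), the neurexin-like gene CNTNAP2 (2), the contactin gene CNTN1 (1) and the catenin genes CTNNA2 (1) and CTNNA3 (2). All 3 CUB and Sushi genes, CSMD1, CSMD2 and CSMD3, held at least 1. Of 96 potassium channel genes 5 did: KCNH1, KCNH7, KCNQ3 and KCNU1, which encode channel subunits, and KCNIP4, which encodes a channel-interacting protein. Calcium channels gave 1 of 26 (CACNA2D3) and ionotropic glutamate receptors 1 of 19 (GRIK1). Ionotropic GABA receptors (symbols that start with GABR, so without GABBR2) gave 0 of 19. Among 94 cadherins and protocadherins, CDH4, CDH12 and CDH13 held a region.

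Regulators of cell identity were also counted. In the list of homeobox and developmental factors 4 of 144 genes (2.78%) held a region, beside 0.978% of all protein-coding genes. Among them, the transcription factor genes FOXP2, SOX5 and SOX6 held 2 regions each, none within 1 kb of the start. Zinc finger genes gave 2 of 518 (ZNF362 and ZNF521) and olfactory receptors 2 of 392 (OR51B5 and OR51Q1, which share 1 region). In the neuroendocrine list 1 of 18 genes found held a region, NCAM1, the neural cell adhesion marker, with 2 (chr11:113171923-113173288 and chr11:113200008-113201067) at lowest −log10 q values of 1.40 and 1.31. None of the 8 luminal genes and none of the 11 PRC2 genes held one.

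Chromosomes shared the regions unevenly. Over the genome there were 3.84 H19-only regions per 1000 merged regions. Chromosome 18 had 5.17 and chromosome 5 had 4.76, while chromosome 19 had 1.26 with 3 regions and chromosome 4 had 2.30 with 18. The 5 Mb window with the most lay at the start of chromosome 8, where 13 H19-only and 2 CTL-only regions stood among 827 merged regions, or 15.7 per 1000. Before 45 Mb on chromosome 8 there were 26 H19-only and 14 CTL-only regions among 3711 merged regions, or 7.01 and 3.77 per 1000. Beyond it there were 22 and 81 among 8958, or 2.46 and 9.04 per 1000. A window of chromosome 1 from 80 to 85 Mb, which holds ADGRL2, had 8 H19-only and 2 CTL-only regions among 303. Of the 628 windows with a merged region, 261 held an H19-only region and 126 of these held 1. The windows were picked out after the counts were seen.

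Neighbouring regions were usually far apart, with a median of 374795 bases to the next H19-only region, and 37 regions (6.42%) had another within 10 kb. The closest pair lay 157 bases apart on chromosome 9 (chr9:74352286-74353581 and chr9:74353739-74356435), outside genes. A pair in CADM2 (chr3:85791406-85792951 and chr3:85793240-85793792) was separated by 288 bases. The third pair lay in TPTE on chromosome 21 (chr21:10577697-10578222 and chr21:10578939-10579913), 716 bases apart.

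The authors' table of differential H3K27me3 sites gives a mean normalised signal per group, on a log2 scale, for 1140 sites. These means come from the same libraries as the calls and are not independent of them. Of the H19-only regions, 30 (5.21%) overlapped 29 listed sites, and the V16D/H19 mean was the higher one for 29 of the 30 regions. Only 97 of the 1140 listed sites (8.51%) had the higher mean in V16D/H19, and 28 of these 97 (28.9%) overlapped an H19-only region. Each mean covers the whole listed site, 34150 bases at the widest, and not the H19-only region alone. Over the 30 regions the median of the authors' means was 6.21 in V16D/H19 and 5.14 in V16D/CTL, with a median difference of 1.02. The largest difference was at CSMD1 (the region chr8:3693287-3694679), with means of 5.59 and 3.90 over a site of 7952 bases. At the region upstream of PTPRK they were 5.53 and 4.09, at GNAI1 5.48 and 4.23, at HS3ST5 5.19 and 4.03, and at TLN2 5.18 and 4.03. A region in RND3 (chr2:150475540-150478100) had 5.17 and 3.74. The exception was a chromosome 6 region (chr6:30472573-30473630), with 8.19 in V16D/H19 and 8.65 in V16D/CTL over a site of 19705 bases. Every V16D/CTL mean was at least 3.58, so signal was counted in V16D/CTL at all of these sites.

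H3K4me3 was not used to choose the regions and could be compared between groups, although each replicate's input served both marks. H3K4me3 peaks overlapped 7, 6 and 5 of the H19-only regions in V16D/CTL replicates 1 to 3 and 6, 7 and 6 in V16D/H19. The means of 6 ± 1 and 6.33 ± 0.577 regions (SD, n = 3) lay within the spread of the libraries (two-sided exact permutation test, p = 1). Within 10 kb of a peak lay 43, 38 and 38 regions in V16D/CTL against 45, 48 and 43 in V16D/H19. The difference of 5.67 regions between means of 39.7 ± 2.89 and 45.3 ± 2.52 (SD, n = 3) gave p = 0.2 in the exact permutation test. With 3 libraries a group this test cannot give a p below 0.1. Over all merged regions the same counts were 13205, 12592 and 12819 in V16D/CTL against 14457, 14673 and 13105 in V16D/H19, and V16D/H19 replicate 3 lay below V16D/CTL replicate 1.

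In all, 7 H19-only regions met an H3K4me3 peak in some library. The first lay inside KAZN (chr1:14599263-14601272), a gene of cell junctions and cornified epithelium, and not at the gene start used here. Its H3K4me3 fold over input was 47.6, 43.1 and 51.4 in V16D/CTL against 25.3, 24.6 and 21.6 in V16D/H19. Every V16D/H19 library was below every V16D/CTL library, by a mean of 23.6 fold units (exact permutation p = 0.1, the smallest possible). After Benjamini-Hochberg adjustment over the H19-only regions with an H3K4me3 peak in all 6 lists, this exact permutation p was 0.5. Such separation downward was found at 4.63% of the 15811 merged H3K4me3 regions with a peak in all 6 lists, and upward at 6.84%. At the KAZN start the H3K4me3 fold was 14.9, 19.5 and 23.5 in V16D/CTL against 18.6, 24.3 and 14.4 in V16D/H19, where the groups overlapped. The H3K27me3 −log10 q of the region inside KAZN was 3.91, 1.77 and 1.44. Only 3 bases were shared by the 3 lists, and the nearest V16D/CTL H3K27me3 peak lay at 123490 bases. At GNAI1 the H3K4me3 fold was 33.0, 50.6 and 37.6 in V16D/CTL against 22.8, 21.7 and 34.6 in V16D/H19, where the groups overlapped (exact permutation p = 0.2).

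The other H3K4me3 peaks over H19-only regions showed no separation of the groups. At the NR2F1-AS1 promoter (the region chr5:93585521-93586374), the H3K4me3 fold was 32.0, 52.6 and 47.7 in V16D/CTL against 37.5, 49.9 and 34.7 in V16D/H19 (exact permutation p = 0.9). This region lies inside NR2F1, and the fold within 1 kb of the NR2F1 start was the same in every library. At the SLC22A4 region the fold was 25.5, 19.5 and 24.1 against 17.9, 21.9 and 21.4 (exact permutation p = 0.3). At SLC45A4 it was 34.7, 44.98 and 66.0 against 61.0, 35.7 and 69.7 (exact permutation p = 0.7). The region in GNAL (chr18:11731933-11734567), another G protein alpha subunit gene, met a peak in V16D/CTL replicate 1 and V16D/H19 replicate 2 only. The last (chr14:85120653-85122045), 408099 bases upstream of FLRT2, met one in every library except V16D/CTL replicate 3.

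H3K4me3 was then counted at the starts of the 196 genes that hold an H19-only region, called host genes. An H3K4me3 peak lay within 1 kb of the start in 114, 115 and 115 of these genes in V16D/CTL against 126, 129 and 120 in V16D/H19. The means were 115 ± 0.577 and 125 ± 4.58 genes (SD, n = 3), a difference of 10.3, with no overlap between the groups (two-sided exact permutation p = 0.1, the smallest the design allows). The genes that hold CTL-only regions showed the same separation, with 204, 200 and 206 of 383 genes against 220, 226 and 215. Over all 19675 protein-coding genes with a known strand the counts were 12257, 12210 and 12259 in V16D/CTL against 12392, 12450 and 12240 in V16D/H19, so that the groups overlapped at V16D/H19 replicate 3. Among genes of at least 500 kb, host genes included, they were 196, 197 and 195 of 315 against 209, 209 and 201. Among the 246 of that length without an H19-only region they were 157, 157 and 157 against 164, 165 and 159. For the 3179 genes of 100 kb or more without one they were 2302, 2291 and 2308 against 2343, 2356 and 2325. The groups did not overlap in any of these sets of long genes. H3K4me3 at the start was present in all 6 lists for 105 host genes (53.6%, against 60.8% of all genes) and in none for 64 (32.7%, against 35.8%).

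Among the 105 host genes with an H3K4me3 peak at the start in all 6 lists, the fold over input was higher in every V16D/H19 library than in any V16D/CTL library for 15 (14.3%). The same held for 7.13% of all 11971 such genes, for 12.6% of the 190 that hold CTL-only regions and for 9.33% of the 150 genes of at least 500 kb without an H19-only region. One host gene, TLN2, was lower in every V16D/H19 library (0.952%), beside 3.96% of all genes. These counts leave out genes that lack a peak in some list. Over the 132 host genes with a peak at the start in at least 1 list, and with a missing peak counted as 0 (a setting chosen after seeing the data), 25 (18.9%) were higher and 3 (2.27%) lower in every V16D/H19 library. The background over 12639 such genes was 7.4% higher and 4.03% lower. Genes that hold CTL-only regions and long genes without an H19-only region were not counted in this setting.

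The 2 further genes with lower values were RND3 and CYYR1. At the start of RND3, whose H3K27me3 means are given above, the H3K4me3 fold was 29.5, 17.9 and 21.9 in V16D/CTL against 5.32 and 7.38 in V16D/H19 replicates 1 and 2, with no peak in replicate 3. At CYYR1 it was 9.09, 10.6 and 5.47 against 4.75 and 4.54, again with no peak in V16D/H19 replicate 3. Among the 10 further genes with higher values, DGKI had no peak, 5.86 and 3.25 in V16D/CTL against 10.6, 12.7 and 11.2 in V16D/H19, and PID1 had 5.52, no peak and 3.39 against 9.05, 16.8 and 11.3. These 4 genes were chosen after their values were seen.

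The values that follow are of host genes with a peak in all 6 lists. At CSMD2 the H3K4me3 fold was 5.68, 4.35 and 3.39 in V16D/CTL against 11.2, 15.3 and 10.4 in V16D/H19, 2.75-fold higher by the ratio of means. At CNTNAP2 it was 6.82, 3.54 and 6.45 against 7.70, 14.2 and 14.7, or 2.18-fold higher. FBN2, which encodes the extracellular matrix protein fibrillin 2, had 6.71, 7.13 and 9.85 against 15.5, 15.7 and 14.3, or 1.92-fold higher.

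ATRNL1, with 3 H19-only regions, had an H3K4me3 fold of 16.4, 17.9 and 35.4 in V16D/CTL against 42.6, 39.0 and 40.9 in V16D/H19 at its start. At the start of TLN2 it was 66.3, 64.0 and 85.6 in V16D/CTL against 60.6, 42.2 and 43.8 in V16D/H19, with V16D/H19 replicate 1 just below V16D/CTL replicate 2. The remaining 11 host genes with higher values and a peak in all 6 lists were BBS9, CFAP58, COL18A1, CTNND2, EPHB1, KCNIP4, PTPRE, PTPRZ1, RORA, SEM1 and ZBTB20, with ratios of means from 1.26 at SEM1 to 1.67 at PTPRE. The median difference over the 105 host genes with a peak in all 6 lists, V16D/H19 minus V16D/CTL in the mean log2 fold, was 0.08, beside 0.05 over all such genes.

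**Figure D5:**
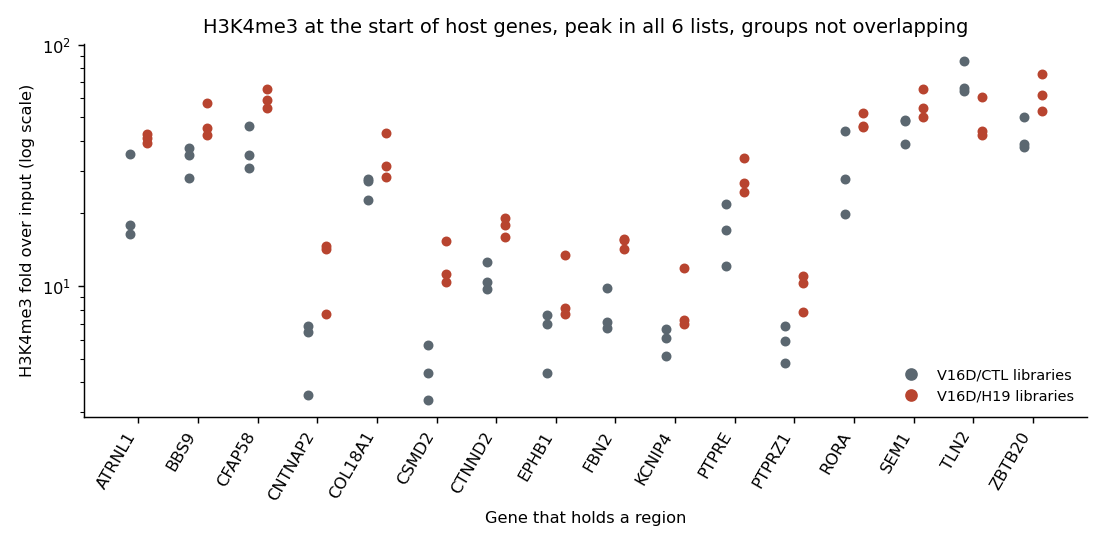
H3K4me3 fold over input (vertical axis, log scale) within 1 kb of the start of the 16 host genes that have a peak in all 6 lists and whose groups do not overlap, 1 point per library. In 15 genes all V16D/H19 points lie above all V16D/CTL points, and in TLN2 they lie below.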

How the data were processed

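H3K27me3 and H3K4me3 ChIP-seq of V16D/CTL and V16D/H19 cells (n = 3) was analysed from 12 deposited peak lists. The 6 input libraries served only in the authors' peak calling, made per library with MACS2 (broad peaks for H3K27me3). The deposited lists give each peak's linear ratio (fold) over input and its p-value and q-value as −log10. The authors' 2 DiffBind tables, annotated with ChIPseeker, hold log2 mean signal per group for sites with an FDR up to 0.05. Their fold changes, p-values and FDR were not used. The submitters' processing notes name hg38 and these tools, without versions.

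Peaks were merged with Python 3.11.15 and pandas 2.3.3. Genes came from RefSeq GRCh38.p14, with a single start at the 5′ end and a strand for 19675 of 20037 (98.2%). Sequence was read only from the RefSeq promoter table. H3K4me3 was compared by a two-sided exact permutation test over the 20 assignments of 6 libraries, and the code was tested on simulated data. Alternatives were stricter thresholds, equal list lengths, other merging and start windows, omitted libraries and a replicate block. Regions were named by rule: the 10 with the highest lowest −log10 q, the 5 widest, those within 1 kb of a gene start or under an H3K4me3 peak, those in the 10 genes with most, the 3 closest pairs and those in genes of the lists. Regions and gene lists were chosen with earlier results of these data known. Read depth was not used, so no counting intervals are given. Some genes of the lists are not reported here.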

Additional observations from a re-analysis of the deposited data

How the results depend on the processing

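The number of H19-only regions depended on the threshold of the lists: 576 as deposited, 96 with peaks of −log10 q of at least 2, of which 14 overlapped the 576, and 0 at 5. CTL-only regions numbered 1159, 716 and 84. Leaving out a library, which relaxes the rule, gave 847 to 2403 regions: 847, 1047 and 1130 without V16D/CTL replicates 1, 2 and 3, and 2403, 2003 and 2029 without those of V16D/H19. Lists of equal length gave 608, overlapping 74.0% of the 576, and merging within 1 kb gave 412, overlapping 29.2%.

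The difference in regions under an H3K4me3 peak ranged from -0.167 (without V16D/CTL replicate 3) to 0.833 (without V16D/CTL replicate 1) when a library was left out, and the sign changed. For regions within 10 kb of a peak it ranged from 4.33 to 7.33, and for host genes with a peak at the start from 8.33 to 12.8. Regions under an H3K4me3 peak differed by 0 with H3K4me3 peaks of −log10 q of at least 5 and with regions merged within 1 kb. The other differences stayed positive under the remaining settings, at lowest 1 region and 5.33 genes with regions merged within 1 kb. Ranking H3K4me3 within each list, chosen after seeing the data, gave 17 host genes higher (16.2%) and 2 lower (1.9%). By rank, 7.13% of all genes with a peak in all 6 lists were higher and 4.44% lower. For genes that hold CTL-only regions these shares were 15.8% and 3.16%. Counting a missing peak as 0, likewise chosen then, gave 25 host genes higher (18.9%) and 3 lower (2.27%), beside 7.4% and 4.03% of all genes tested. With the replicate block the differences stayed 0.333, 5.67 and 10.3, with exact permutation p of 1, 0.25 and 0.25, where 0.25 is the smallest possible. Same-numbered libraries did not deviate together in the fold of shared peaks (correlations from -0.00937 to 0.0260). Whether they shared a batch that this measure does not show was not tested. Unknown read depth limits what a missing peak means.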

Other observations

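In all, 3 H19-only regions lay on unplaced or unlocalised contigs, where no gene was assigned. A microRNA hairpin, MIR5197, lay 38 bases from an H19-only region on chromosome 5 (chr5:143678664-143679822). The authors' mean of the listed site over that region was 5.02 in V16D/H19 and 3.76 in V16D/CTL on the log2 scale. Small groups of H19-only regions also stood outside protein-coding genes. On chromosome 11, 4 lay within 122 kb (chr11:28596079-28718252), and on chromosome 7, 4 lay within 90.5 kb (chr7:79803319-79893803). On chromosome 8, 3 lay within 21.1 kb (chr8:2872035-2893177), beyond the end of CSMD1, and all 3 overlapped listed sites with the higher authors' mean in V16D/H19.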
